A study of Mus musculus with 4 samples.

Results

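The genes described here are transporters of ions, metals and urea from 15 solute carrier (SLC) families, chosen by their names on the array. The name rule found 93 genes among the 34821 gene names and unnamed transcripts of the array, matched by 133 probes. Messenger RNA was measured in NIH3T3, a mouse fibroblast line derived from embryos that grows without limit. The cells carried EGFR, the receptor for epidermal growth factor, as Wild Type in one group and as a Deletion Mutant in the other. Each group had 2 arrays, hybridised with Cy3-labelled cRNA from cells at steady state with no treatment. How much of the receptor was deleted, its species and promoter, and whether a line was 1 clone are not stated in the labels. They mention separate cDNA preparations and not separate cultures, so p-values here reflect the spread among these arrays alone, and that spread may be technical.

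Transporters of these families move small inorganic solutes across the plasma membrane and organelle membranes, by exchange or by cotransport along the gradients of sodium, protons or chloride. In fibroblasts they are known for setting cytosolic pH, cell volume and chloride, for supplying phosphate, and for keeping free zinc, iron, magnesium and calcium within bounds. Zinc is handled by importers that fill the cytosol (the SLC39 or ZIP family) and by exporters that empty it into vesicles or out of the cell (the SLC30 or ZnT family).

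A gene was tested when both arrays of 1 or both groups had a probe of it well above background, and values are log2 signals relative to the 75th percentile of each array. Per array, 42.9% to 46.9% of all probes passed that background limit, and 0 were saturated. The groups occupied different columns of the 1 slide that held all 4 arrays, so column and group cannot be told apart. The mouse Egfr probe was at least 11.5-fold lower in deletion-mutant cells (limma adjusted p = 0.000146), which does not check the labels because the probe may not match the introduced receptor. Of 10 fibroblast markers, 9 were tested, 1 of them higher and 7 lower. That was 11.1% and 77.8%, against 34.6% and 24.2% of all features. Their summed linear signal was 1910 and 1970 times the percentile on the wild-type arrays and 1380 and 1420 on the deletion-mutant arrays. Of the defining epithelial markers, Epcam, Cdh1, Krt18, Krt19 and Cldn4 were not well above background on both arrays of either group. Krt8 rose at least 2.79-fold, while Esrp1 differed by -0.26 ± 0.174 (SE, log2, limma adjusted p = 0.26) and was not called. Of 7 erythroid markers only the globin Hba-a1 was tested, which was 3.86-fold higher (summed signal 0.364 and 0.360 against 1.34 and 1.46). Of 7 leukocyte markers 4 were tested and 1 fell (35.1 and 37.7 against 20.2 and 20.1), with Ptprc not tested. The 1 that fell was Itgam, which read 5.05 and 5.15 against 4.18 on both deletion-mutant arrays (log2). Cd68, Cd3e and Cd79a were much dimmer and not called, so the sum mostly reflects Itgam. Of 6 endothelial markers 2 were tested and 1 fell. Pecam1 fell, from -1.66 and -1.61 to -1.96 and -2.09 (log2), while the brighter Kdr was not called. The summed signal of both (7.07 and 6.50 against 6.50 and 6.65) mostly reflects Kdr. The 2 tested epithelial markers summed to 0.219 and 0.192 in wild-type and 0.389 and 0.337 in deletion-mutant arrays, and the part of other cell types in the results below was not tested. In such bulk samples, fewer cells that express a gene and less RNA per cell cannot be told apart.

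Phosphate importers, a magnesium transporter, 3 zinc transporters and above all a urea transporter were higher in deletion-mutant cells, while the sodium-potassium-chloride cotransporter Slc12a2 was lower. Of the 93 genes, 53 were tested, of which 22 rose, 13 fell and 18 did not pass an adjusted p of 0.05. The same test called 58.8% of all 18093 features, 34.6% as higher and 24.2% as lower, so a share of 41.5% higher and 24.5% lower among the tested transporters lies near that background. The shares over all features are the background for each count of a role or list below. A fitted rise of at least 2-fold was found for 8 of the 53 (15.1%, against 5.94% of all features). A fitted fall of that size was found for 2 (3.77%, against 7.46%). Of these Slc12a2 alone was measured in both groups, since Slc26a10 was not well above background in deletion-mutant cells and has only a bound. The members were chosen with earlier results of these data known, so these shares are no independent finding. The median difference of the 53 was 0.13 (log2), and that of all features was 0.066. Without wild-type replicate 2 the calls were 18 higher and 8 lower. The share of rises among called transporters was 62.9%, and it became 80.5% under median scaling and 51.5% under the percentile of probes detected on all arrays. Calls over all features shifted likewise. They were 6260 higher and 4371 lower here, 8696 and 3140 under median scaling, and 4276 and 6727 under that percentile. Over 5 scalings 17 of the 22 rises and 7 of the 13 falls were called each time. Calls in opposite directions were made for Slc39a1 alone, a zinc importer that did not pass here.

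**Figure D1:**
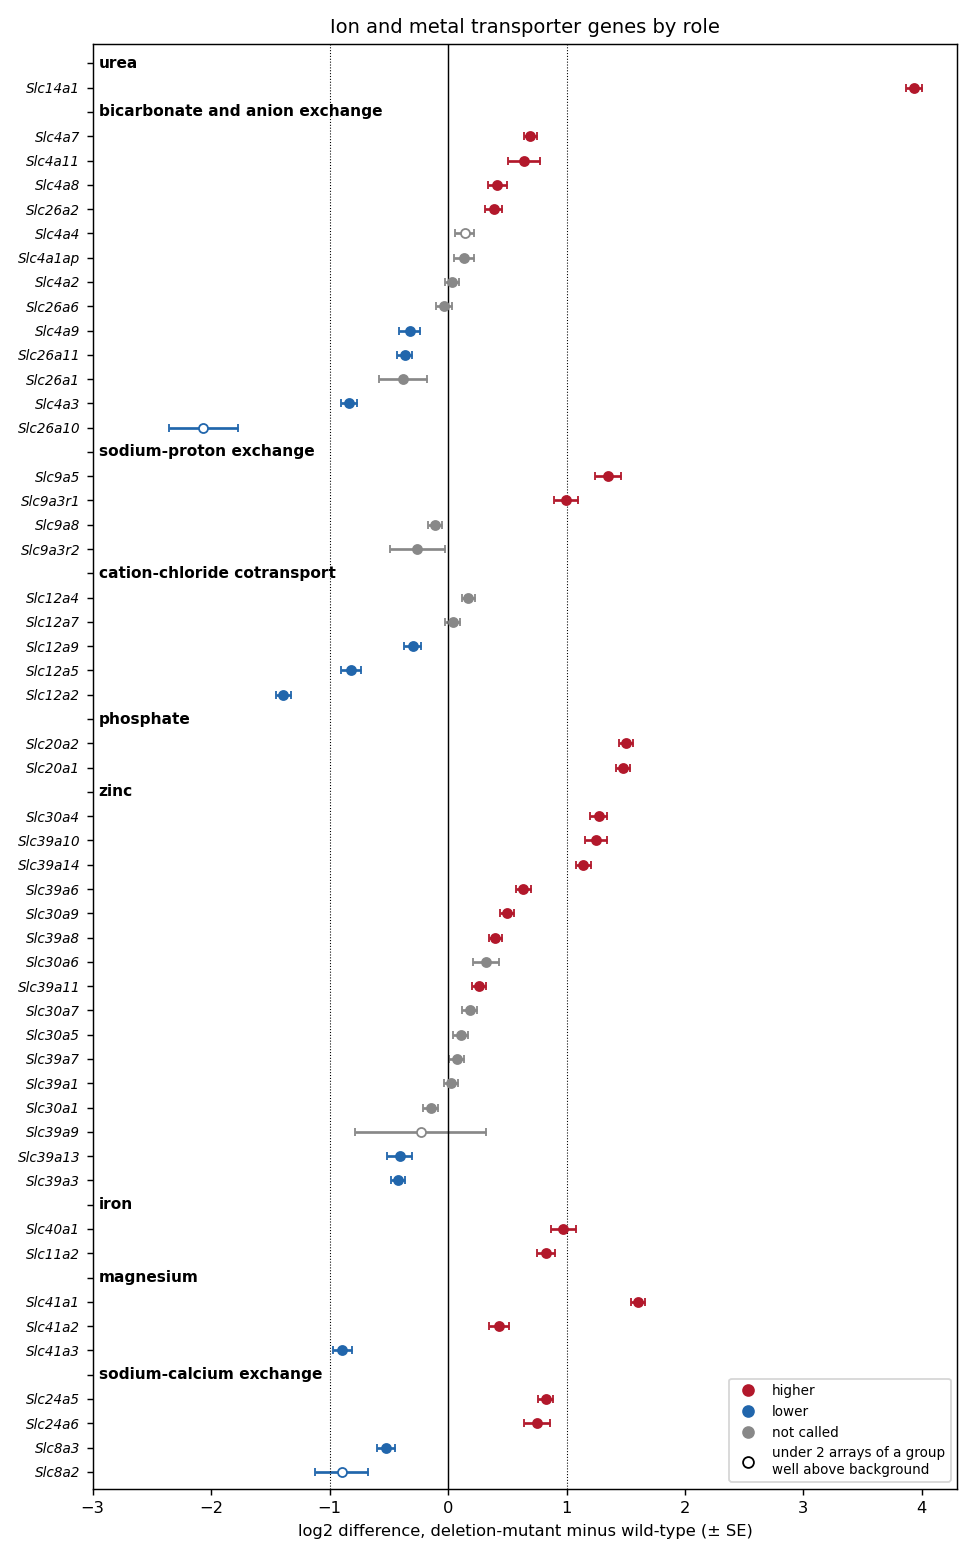
Log2 difference (deletion-mutant minus wild-type, ± SE, n = 2 arrays per group) of tested transporter genes, grouped by role, with dotted lines at a 2-fold change and open points where fewer than 2 arrays of a group were well above background. Slc14a1 lies far to the right of every other gene, both phosphate importers lie beyond the dotted line, and no cation-chloride cotransporter shown is red.

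Slc14a1 encodes a urea transporter (UT-B), known from red blood cells and kidney vessels, which also lets water through. Its probe (chromosome 18, 78298526 to 78298585, mm9) read -2.25 and -2.16 on the wild-type arrays and 1.69 and 1.77 on the deletion-mutant arrays. The wild-type values were low but well above background, the deletion-mutant values were above the 75th percentile, and the groups lay far apart. The rise was 15.3-fold (3.93 ± 0.067 SE, log2, limma adjusted p = 0.000146), the greatest change among the 53 genes. The other urea transporter, Slc14a2, was not well above background on any array.

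Genes that make urea or move water did not change in 1 direction. Of 7 tested genes of the urea cycle and water channels, 2 rose and 3 fell, with a median of 0.14 (log2). The water and glycerol channel Aqp3 read -2.34 and -2.41 in wild-type and -1.15 and -1.03 in deletion-mutant arrays, a 2.45-fold rise. The water channel Aqp1 rose 1.88-fold. Falls were seen for Aqp5, a water channel of secretory epithelia (4.88-fold), and for Ass1, the argininosuccinate synthase of the urea cycle (2.79-fold). The arginases Arg1 and Arg2 were not well above background on both arrays of either group.

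Phosphate enters fibroblasts mainly through the sodium-phosphate cotransporters Slc20a1 (PiT-1) and Slc20a2 (PiT-2), which also serve as receptors for certain retroviruses. Slc20a1 (chromosome 2, 129037286 to 129037345, mm9) read 3.23 and 3.26 in wild-type cells, against 4.69 and 4.75 in deletion-mutant cells. The groups did not overlap, and the rise was 2.78-fold (1.48 ± 0.060 SE, log2, adjusted p = 0.000404). Slc20a2 (chromosome 8, 23679961 to 23680020) read 1.95 and 1.92 against 3.42 and 3.45, a rise of 2.83-fold (1.5 ± 0.057 SE, log2, adjusted p = 0.000358). Both members of the family thus rose by nearly the same factor. A fainter Slc20a2 probe gave 1.56 ± 0.104 (log2). The renal and intestinal phosphate cotransporters Slc34a1, Slc34a2 and Slc34a3 were not well above background on both arrays of either group.

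Other genes of phosphate handling went both ways, with 2 of 6 tested genes higher, 3 lower and a median of -0.46 (log2). Ank, which passes pyrophosphate and other anions out of the cell, read 4.11 on both wild-type arrays and 5.60 and 5.66 on the deletion-mutant arrays, a 2.87-fold rise. Enpp1, which makes pyrophosphate outside the cell, rose 2.01-fold, and the lysophospholipase Enpp2 (autotaxin) fell 2.92-fold. The phosphate exporter Xpr1 had a difference of -0.01 ± 0.067 (SE, log2, adjusted p = 0.909). Phospho1, a phosphatase of mineralising cells, was at least 1.5-fold lower, and the hormone gene Fgf23 fell 1.87-fold.

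Magnesium transporters of the SLC41 family moved apart. Slc41a1, known as a sodium-dependent magnesium exporter of the plasma membrane (probe on chromosome 1, 133744901 to 133744960, mm9), read 0.23 on both wild-type arrays and 1.87 and 1.79 on the deletion-mutant arrays. It rose 3.04-fold (1.6 ± 0.061 SE, log2, adjusted p = 0.000369), the greatest rise after that of Slc14a1. Slc41a2 read 0.50 and 0.69 against 1.03 and 1.02 and rose 1.35-fold (adjusted p = 0.014), a call that was lost under the percentile of the detected probes. Slc41a3, described as a mitochondrial magnesium transporter, read 0.48 and 0.32 against -0.48 and -0.51 and fell 1.86-fold (adjusted p = 0.0018). In the list of magnesium channels and CNNM proteins, 4 of 8 tested genes rose and 1 fell (all features: 34.6% and 24.2%). The list had a median of 0.28 (log2). Its greatest changes were in related genes: Cnnm4 rose 2.15-fold and Cnnm2 fell 2.21-fold. Nipa2, a magnesium transporter, rose 1.47-fold. The kinase-channel Trpm7 differed by 0.02 ± 0.073 (SE, log2, adjusted p = 0.809).

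**Figure D2:**
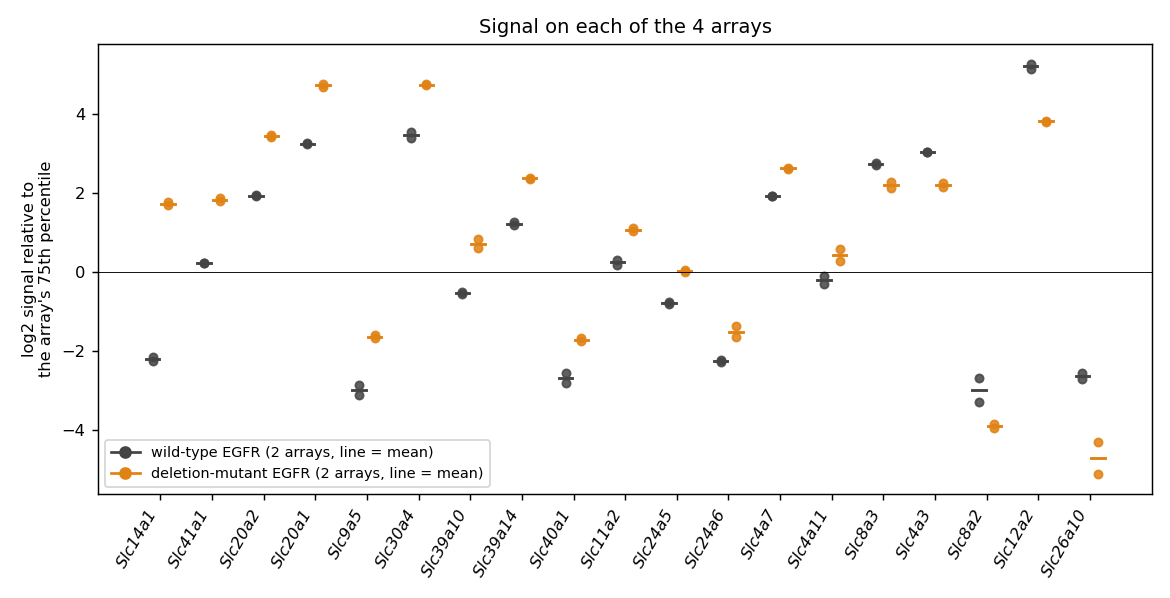
Log2 signal relative to the 75th percentile of the array for 19 transporter genes, with the 2 wild-type arrays in grey, the 2 deletion-mutant arrays in orange and a short line at each mean; levels should be compared within a gene and not between genes. The genes shown were chosen from those called, so the separation of their groups is no further evidence. The groups did not overlap for 83% of tested transporters and 81.7% of all features. The gap is widest for Slc14a1, and Slc8a2 and Slc26a10 lie near background in the deletion-mutant arrays.

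Zinc transporters were the largest role group, with 16 of 24 genes tested, 7 higher, 2 lower and a median of 0.22 (log2). That was 43.8% higher and 12.5% lower, against 34.6% and 24.2% of all features. Among 10 tested SLC39 importers, 5 rose and 2 fell, and among 6 tested SLC30 exporters 2 rose and 0 fell. Slc39a10, a plasma membrane importer, read -0.52 and -0.55 in wild-type and 0.82 and 0.60 in deletion-mutant arrays, a 2.38-fold rise (1.25 ± 0.095 SE, log2, adjusted p = 0.00128). Slc39a14, an importer that also carries iron and manganese, read 1.18 and 1.27 against 2.39 and 2.35 and rose 2.21-fold (adjusted p = 0.000708). Slc30a4, an exporter that loads zinc into vesicles, read 3.40 and 3.54 against 4.72 and 4.76 and rose 2.41-fold (1.27 ± 0.074 SE, log2, adjusted p = 0.000771). In each of these 3 genes both deletion-mutant arrays lay above both wild-type arrays by more than the spread within a group. Groups that did not overlap were common, at 81.7% of all features.

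Smaller rises among zinc transporters were those of Slc39a6 (1.55-fold), a close relative of Slc39a10, of Slc39a8 (1.32-fold), which carries manganese as well, of Slc30a9 (1.41-fold) and of Slc39a11 (1.20-fold). The rise of Slc39a11 was not called without any 1 of the 4 arrays. The plasma membrane importer Slc39a3 fell 1.34-fold, from 3.03 and 2.95 to 2.59 and 2.55. Slc39a13, an importer of the secretory pathway needed in connective tissue, read 3.48 and 3.30 against 2.88 and 3.08, and its 1.33-fold fall was lost without wild-type replicate 1 or 2 or deletion-mutant replicate 1. Differences that did not pass lay between -0.23 (Slc39a9) and 0.32 (Slc30a6) on the log2 scale. The widest spread was that of Slc39a9, which read -2.42 and -4.02 on the deletion-mutant arrays. Slc30a1, the exporter of the plasma membrane and a known target of the zinc sensor Mtf1, differed by -0.15 ± 0.066 (SE, log2, adjusted p = 0.125).

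Metallothioneins are small proteins that bind zinc and copper and are induced by them, and the widely expressed Mt1 and Mt2 fell. Mt1 read 7.71 on both wild-type arrays and 7.18 and 7.32 on the deletion-mutant arrays, a 1.37-fold fall (adjusted p = 0.00718), and Mt2 fell 1.44-fold (adjusted p = 0.00502). The sensor Mtf1 itself differed by 0.06 ± 0.060 (SE, log2, adjusted p = 0.471). Mt3 differed by 0.10 ± 0.101 (SE, log2, adjusted p = 0.436), and Mt4, a gene of squamous epithelia that was well above background on 1 of the wild-type arrays, had a fitted rise of 2.67-fold. Mtf2, a Polycomb-associated protein that shares only its name with the sensor, rose 1.52-fold. In the whole list 2 of 6 tested genes rose and 2 fell, with a median of 0.078 (log2). Among 6 tested copper genes 3 rose and 2 fell. Commd1, a regulator of copper export (1.35-fold), and the importer Slc31a1 (1.27-fold) rose, and the copper pump Atp7a (1.59-fold) and Slc31a2 (1.53-fold) fell.

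Promoters are shown for 5 of the 8 transporters that rose by at least 2-fold. These were the ones whose window was searched, so they were not picked for their motifs. A window was searched for 38 of the 53 tested transporters, and the motif counts below cover only those. Sequences are RefSeq's on GRCm38.p6, the 250 bases upstream of the most upstream start, 5′ to 3′ along the gene, with motif matches in capitals. Slc20a1 lies at chr2:129198523-129198772 (plus strand), Slc41a1 at chr1:131827762-131828011 (plus strand) and Slc30a4 at chr2:122702664-122702913 (minus strand). Slc39a10 lies at chr1:46925777-46926026 (minus strand) and Slc9a5, a sodium-proton exchanger described further on, at chr8:105348008-105348257 (plus strand).
Slc20a1: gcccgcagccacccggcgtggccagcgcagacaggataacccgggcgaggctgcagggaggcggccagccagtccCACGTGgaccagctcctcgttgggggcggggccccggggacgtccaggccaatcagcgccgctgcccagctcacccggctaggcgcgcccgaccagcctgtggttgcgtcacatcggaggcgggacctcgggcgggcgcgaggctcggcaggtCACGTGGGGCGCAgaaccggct
Slc41a1: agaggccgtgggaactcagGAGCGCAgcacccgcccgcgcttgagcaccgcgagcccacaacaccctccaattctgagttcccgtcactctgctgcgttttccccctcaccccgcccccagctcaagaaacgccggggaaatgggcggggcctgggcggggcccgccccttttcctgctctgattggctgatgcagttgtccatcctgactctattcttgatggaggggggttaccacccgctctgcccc
Slc30a4: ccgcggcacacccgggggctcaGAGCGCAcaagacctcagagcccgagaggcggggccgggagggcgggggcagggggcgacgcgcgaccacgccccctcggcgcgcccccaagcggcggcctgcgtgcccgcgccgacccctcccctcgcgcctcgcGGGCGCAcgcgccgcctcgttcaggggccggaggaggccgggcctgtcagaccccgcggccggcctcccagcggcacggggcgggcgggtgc
Slc39a10: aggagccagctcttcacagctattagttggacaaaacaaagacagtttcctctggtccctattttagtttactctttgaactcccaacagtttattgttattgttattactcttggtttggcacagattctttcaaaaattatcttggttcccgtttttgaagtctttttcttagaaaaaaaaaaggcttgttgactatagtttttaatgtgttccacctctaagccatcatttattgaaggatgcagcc
Slc9a5: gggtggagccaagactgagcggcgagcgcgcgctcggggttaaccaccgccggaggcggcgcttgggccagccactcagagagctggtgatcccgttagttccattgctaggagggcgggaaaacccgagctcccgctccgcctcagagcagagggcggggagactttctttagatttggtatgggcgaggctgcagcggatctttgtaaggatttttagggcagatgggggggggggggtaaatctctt

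Motifs were searched on both strands: the core of the metal response element bound by Mtf1 (TGCACNC or TGCGCNC), the E-box CACGTG, the AP-1 site TGANTCA, the cAMP response element TGACGTCA and the ETS site CCGGAAGT. Slc20a1 held 2 E-boxes, the one nearer the start adjoined by its 1 metal response core, Slc41a1 held 1 metal response core and Slc30a4 held 2. In the windows of Slc39a10 and Slc9a5 none of the 5 motifs was found. The E-box was found in 6.04% of all 27025 windows, the metal response core in 21.3%, AP-1 in 6.85%, the ETS site in 2.92% and the cAMP element in 1.6%. Among tested transporters with a window, the metal response core occurred in 7 of 13 that rose, 5 of 9 that fell and 4 of 16 that did not pass. AP-1 occurred in 1 transporter of each of these classes. A match describes the letters of the window and not binding.

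Both tested iron transporters rose. Slc11a2 (DMT1), which brings iron out of the endosome and from the gut lumen into the cell, read 0.30 and 0.18 in wild-type and 1.03 and 1.1 in deletion-mutant arrays, a 1.77-fold rise (0.83 ± 0.073 SE, log2, adjusted p = 0.00174). A fainter probe gave 0.71 ± 0.147 (log2). Slc40a1 (ferroportin), the iron exporter of the plasma membrane, read -2.80 and -2.57 against -1.67 and -1.76 and rose 1.96-fold (0.97 ± 0.103 SE, log2, adjusted p = 0.00261), a difference that was 0.49 with normexp background correction. Slc11a1, an importer of phagocyte vesicles, was not well above background on any array.

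In the wider iron list 3 of 15 tested genes rose and 4 fell, with a median of -0.025 (log2). The transferrin receptor Tfrc read 0.62 on both wild-type arrays and 1.64 and 1.59 on the deletion-mutant arrays and rose 1.99-fold (adjusted p = 0.00073). Fbxl5, an iron-sensing ubiquitin ligase subunit, rose 1.55-fold. The ferroxidase Cp (ceruloplasmin) fell 2.51-fold, Hfe, a partner of the transferrin receptor, was at least 2.37-fold lower, and Hmox1, which frees iron from haem, fell 2.17-fold. The ferritin chains Fth1 (-0.01 ± 0.060 SE, log2) and Ftl1 (-0.17 ± 0.106) did not pass.

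Cation-chloride cotransporters couple chloride to sodium and potassium and set cell volume and cytosolic chloride. Of 6 tested genes, 4 fell and 0 rose, with a median of -0.29 (log2), but the outcome of the smaller changes depended on the scaling. Over all features 24.2% fell and 34.6% rose. Slc12a2 (NKCC1), the cotransporter that brings chloride in (probe on chromosome 18, 58106416 to 58106475, mm9), read 5.15 and 5.25 in wild-type and 3.83 and 3.79 in deletion-mutant arrays. It fell 2.62-fold (-1.39 ± 0.066 SE, log2, adjusted p = 0.000541). The potassium-chloride cotransporters, which let chloride out, showed smaller changes. Slc12a5 (KCC2), known from neurons, read 0.71 and 0.61 against -0.24 and -0.07 by its brightest probe, a 1.76-fold fall (adjusted p = 0.00256). The orphan member Slc12a9 fell 1.23-fold, a call that was lost without wild-type replicate 1 or 2 or deletion-mutant replicate 2. Under median scaling Slc12a9 did not pass, and Slc12a4 (KCC1) and Slc12a7 (KCC4), which differed here by 0.17 ± 0.055 and 0.04 ± 0.062 (log2), were called higher. The kidney cotransporters Slc12a1 and Slc12a3 were not well above background on any array.

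Kinases of the WNK pathway phosphorylate these cotransporters, and LRRC8 proteins form the volume-regulated anion channel. In this list 7 of 12 tested genes rose and 3 fell, with a median of 0.41 (log2). Over all features 34.6% rose and 24.2% fell, with a median of 0.066. Wnk4 read 0.46 and 0.36 in wild-type and -2.14 and -2.09 in deletion-mutant arrays, a 5.78-fold fall (adjusted p = 0.000201). Stk39 (SPAK), the kinase that WNKs activate, rose 1.75-fold, its relative Oxsr1 rose 1.29-fold and their partner Cab39 rose 1.48-fold. The channel chains Lrrc8b (2.42-fold), Lrrc8c (1.78-fold) and Lrrc8d (1.37-fold) rose, whereas Lrrc8e fell 1.31-fold, Nfat5, a transcription factor of the response to high salt, fell 1.39-fold and the obligatory chain Lrrc8a differed by 0.11 ± 0.084 (SE, log2, adjusted p = 0.333).

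Among sodium pump subunits, which build the gradient that many of these transporters use, 2 of 7 tested genes rose and 2 fell. The beta subunit Atp1b1 read 1.80 and 1.89 against -0.58 and -0.54 and fell 5.30-fold (adjusted p = 0.000214), while the beta subunit Atp1b3 rose 1.71-fold and the pump regulator Fxyd5 rose 3.17-fold. Fxyd1, another pump regulator, fell 1.30-fold.

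**Figure D3:**
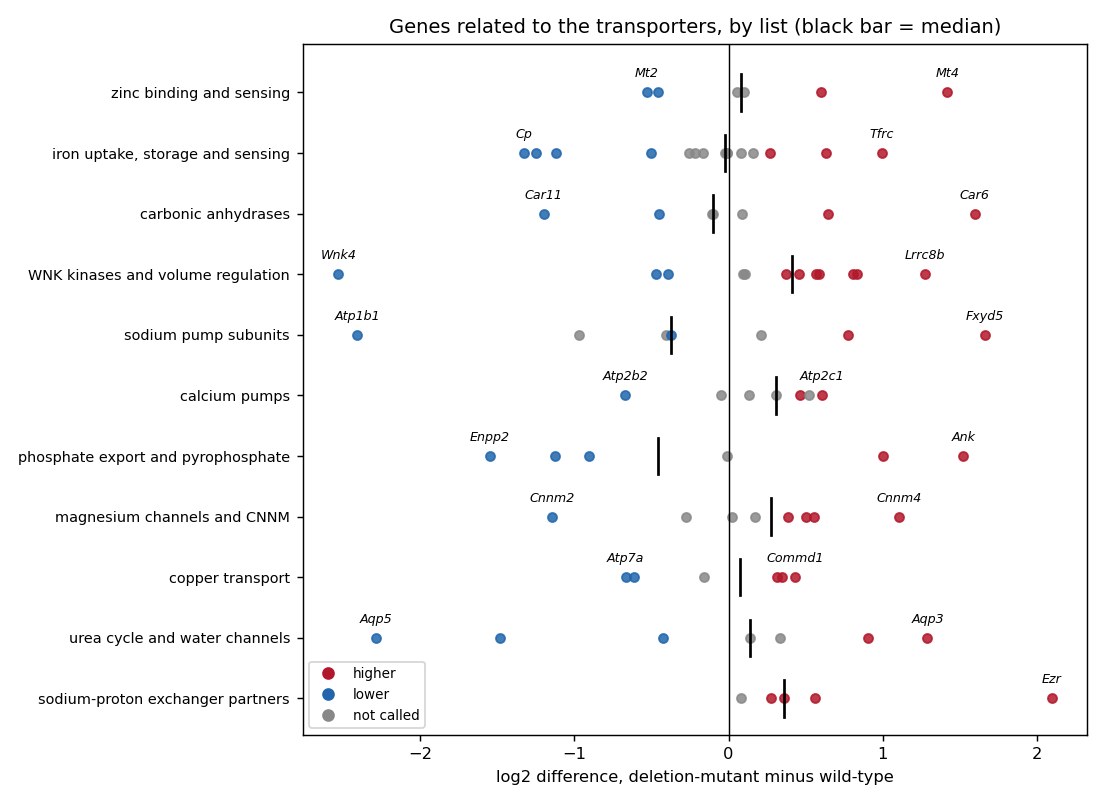
Log2 difference (deletion-mutant minus wild-type) of genes in 11 lists related to the transporters, with each tested gene as a point coloured by its call, a black bar at the median of the list and the outermost called genes named. Most lists hold points on both sides of 0, with Wnk4, Atp1b1 and Aqp5 farthest to the left and Ezr farthest to the right.

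Sodium-proton exchangers expel acid from the cytosol or tune the pH of organelles. Of 9 exchanger genes 4 were tested, and 1 rose. Slc9a5 (NHE5), known mostly from brain, read -3.12 and -2.87 in wild-type and -1.61 and -1.68 in deletion-mutant arrays, a 2.55-fold rise at low signal (1.35 ± 0.107 SE, log2, adjusted p = 0.00141). With normexp background correction the difference was 0.67 (log2). The Golgi exchanger Slc9a8 read 3.84 on both wild-type arrays and 3.75 and 3.71 on the deletion-mutant arrays, a difference of -0.11 ± 0.056 by its brightest probe (SE, log2, adjusted p = 0.159).

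The name rule also takes in scaffold proteins that carry exchanger names. Slc9a3r1 (NHERF1), which ties membrane proteins to the ezrin cytoskeleton, read -1.97 and -1.72 against -0.87 and -0.84 and rose 1.99-fold (adjusted p = 0.00241). Slc9a3r2 (NHERF2) differed by -0.26 ± 0.232 (SE, log2, adjusted p = 0.386) by its brightest probe. Of 5 tested partners of these exchangers 4 rose and 0 fell, with a median of 0.36 (log2). Of all features 34.6% rose and 24.2% fell, with a median of 0.066, and the list of partners is short. Ezrin (Ezr), which links NHERF1 to actin, read 0.14 and 0.17 against 2.25 and 2.26 and rose 4.28-fold (adjusted p = 0.00021), and its relative moesin (Msn) rose 1.47-fold.

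Bicarbonate transporters and anion exchangers showed no common direction: of 12 tested transporters 4 rose, 4 fell and 4 did not pass. Slc4a7 (NBCn1), which brings in bicarbonate with sodium, read 1.92 and 1.93 in wild-type and 2.60 and 2.64 in deletion-mutant arrays, a 1.62-fold rise (adjusted p = 0.00144). Slc4a11, a transporter known from the cornea, read -0.10 and -0.32 against 0.58 and 0.29 and rose 1.56-fold (adjusted p = 0.0181). Its call was lost under the percentile of the detected probes (limma adjusted p = 0.0518) and with no background filter (0.0882). It was also lost without wild-type replicate 2, where the difference was 0.53 (log2). Slc4a8, a sodium-driven chloride-bicarbonate exchanger, and the sulphate transporter Slc26a2 rose 1.33-fold and 1.31-fold, and the former was not called without wild-type replicate 1, nor either of them without wild-type replicate 2.

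Among the falls in this role was that of Slc4a3 (AE3), a chloride-bicarbonate exchanger of excitable cells, which read 3.03 and 3.04 in wild-type and 2.14 and 2.25 in deletion-mutant arrays. It fell 1.79-fold (-0.84 ± 0.066 SE, log2, adjusted p = 0.0014), and its other 2 probes gave -0.81 ± 0.094 and -1.28 ± 0.157 (log2). Slc26a10 read -2.55 and -2.72 in wild-type and was not well above background in deletion-mutant cells, where it was at least 1.71-fold lower (adjusted p = 0.00565). Its fitted difference was -2.07 and became -0.58 (log2) with normexp background correction. Slc26a11 fell 1.29-fold and Slc4a9 1.25-fold, and neither was called without wild-type replicate 2, nor Slc4a9 without wild-type replicate 1 or deletion-mutant replicate 2. The widespread exchanger Slc4a2 (AE2) read 2.96 and 2.90 against 2.96 on both deletion-mutant arrays, so the groups overlapped. The difference for Slc4a1ap, an adaptor protein and not a transporter, was 0.13 ± 0.087 (SE, log2, adjusted p = 0.252). Genes with carbonic anhydrase names were equally divided, with 2 of 7 tested genes higher and 2 lower. Car6 rose 3.02-fold, Car4 rose 1.57-fold, Car11 fell 2.29-fold and Car13 fell 1.37-fold.

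Of 4 tested exchangers that remove calcium from the cytosol or from organelles in return for sodium, 2 rose and 2 fell. Slc24a5, known from melanosomes, read -0.82 and -0.77 in wild-type and 0.00 and 0.06 in deletion-mutant arrays, a 1.77-fold rise (0.82 ± 0.060 SE, log2, adjusted p = 0.00118). Slc24a6, now called Slc8b1, the sodium-calcium exchanger of mitochondria, read -2.24 and -2.28 against -1.65 and -1.37 and rose 1.68-fold (0.75 ± 0.111 SE, log2, adjusted p = 0.00627), a difference that was 0.41 with normexp. Slc8a3 (NCX3) read 2.75 and 2.71 against 2.29 and 2.13 and fell 1.44-fold (-0.52 ± 0.077 SE, log2, adjusted p = 0.00637), a difference that was -0.34 under median scaling. Slc8a2 (NCX2) lay near background in wild-type cells (-3.30 and -2.68) and at background in deletion-mutant cells, where it was at least 1.33-fold lower (adjusted p = 0.0285), and without deletion-mutant replicate 1 or 2 the call was lost (adjusted p = 0.0684 and 0.0515). The fitted difference of Slc8a2 was -0.90 (log2), and it was -0.59 without wild-type replicate 2 and -0.31 with normexp. Calcium pumps had 2 of 7 tested genes higher, Atp2c1 of the Golgi (1.52-fold) and Atp2b1 of the plasma membrane (1.38-fold), and 1 lower, Atp2b2 (1.59-fold, adjusted p = 0.0496), which was well above background on 1 deletion-mutant array.

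For 13 transporters more than 1 probe was kept, and the probes of a gene did not always give the same answer. With each probe tested by itself, all probes passed in the same direction for Slc11a2, Slc20a2, Slc30a9 and Slc4a3. No probe passed for Slc26a6 and Slc30a7, and only some probes passed for the other 7 genes. The first 30 of the 60 bases of such probes are printed in lower case, as given in the array's design, to show that the values belong to different stretches of the transcript.
Slc4a7, brighter probe: gtgaaccatcctgcctttcacatttgtttc
Slc4a7, fainter probe: aaaggttcacgagtcggattcccctggttc
Slc12a5, brighter probe: ggtcagttctctcctttactgttgaatgct
Slc12a5, fainter probe: atggccaccgttgtctttgtgggtgtcaag
Slc9a8, brighter probe: aattgggggaagggtgccccaggtcacatg
Slc9a8, fainter probe: cgggctcgccgaaggagcaagaaagacgtc
Slc9a3r2, brighter probe: caatggtggctctgtgtgctcatcccgaag
Slc9a3r2, fainter probe: tgcagtctgcctcataagccatagcgcacg

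The brighter Slc4a7 probe (chromosome 14, 15632353 to 15632412, mm9) gave 0.69 ± 0.059 (SE, log2), and the fainter, at 15572341 to 15572400, gave -0.19 ± 0.121 (adjusted p = 0.24). With the mean of both probes the rise of Slc4a7 was 0.25 (log2). For Slc12a5 the brighter probe (chromosome 2, 164825109 to 164825168) gave -0.82 ± 0.088 and the fainter, at 164804887 to 164804946, gave 0.14 ± 0.138 (adjusted p = 0.438). Here too only the brighter probe passed, and with the mean of both probes Slc12a5 was not called.

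For Slc9a8 and Slc9a3r2 only the fainter probe passed. The fainter Slc9a8 probe gave 0.88 ± 0.193 (adjusted p = 0.0216), where the brighter gave -0.11 ± 0.059. The fainter Slc9a3r2 probe (chromosome 17, 24776234 to 24776293) read -1.19 and -1.37 in wild-type and -2.42 and -2.54 in deletion-mutant arrays, a difference of -1.20 ± 0.094 (adjusted p = 0.00174), where the brighter gave -0.26 ± 0.235. Of other genes in which some probes passed, Slc4a1ap gave 0.42 by its fainter probe and 0.13 by its brighter, and Slc24a6 gave 0.75 by both probes (log2).

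**Figure D4:**
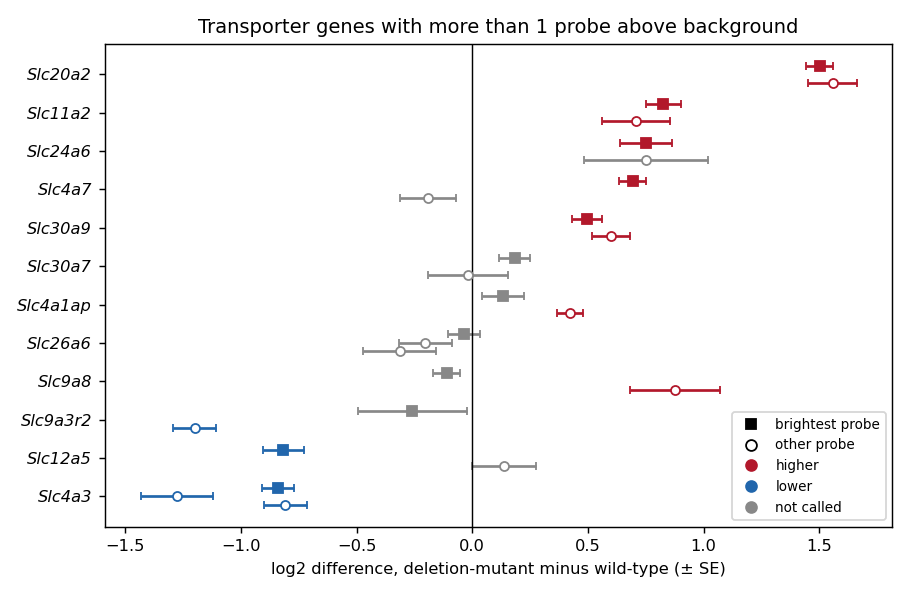
Log2 difference (deletion-mutant minus wild-type, ± SE, n = 2 arrays per group) for each kept probe of transporter genes with more than 1, squares for the brightest probe and open circles for the others. Probes of Slc20a2, Slc11a2, Slc30a9 and Slc4a3 lie together, while those of Slc4a7, Slc9a8, Slc9a3r2 and Slc12a5 are separated.

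The 40 transporters that were not tested were mostly those known from kidney, gut, brain or other specialised tissues. Of these, 36 had no probe well above background on any array, 3 had 1 such array (Slc24a4, Slc34a1 and Slc8a1) and Slc30a2 had 1 in each group. The sulphate and carboxylate cotransporters of the SLC13 family were absent from the tested genes altogether (0 of 5). Bicarbonate and anion transporters not tested were Slc4a1, Slc4a5, Slc4a10, Slc26a3, Slc26a4, Slc26a5, Slc26a7, Slc26a8 and Slc26a9. The exchangers Slc9a2, Slc9a3, Slc9a4, Slc9a7 and Slc9a9, and Slc24a1, Slc24a2 and Slc24a3, were likewise not tested, nor were Slc12a8, Slc30a3, Slc30a8, Slc30a10, Slc39a2, Slc39a4, Slc39a5 and Slc39a12. The background filter left these 40 genes out, so whether they differed between the groups was not tested in the main comparison.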

How the data were processed

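The members were 93 gene names matched by 133 probes, and the members, their roles and the related gene lists were chosen with earlier results of these data known. Per the file headers, spot brightness was read with Feature Extraction 10.10.1.1, and the authors deposited it as intensity on a linear scale after background subtraction and detrending. A matrix of log2 values, likewise deposited, differed from the log2 processed signal by 1 constant per array. Spots marked as uneven or as outliers (116 to 142 per array) and control spots were left out, log2 signals were averaged per probe, and each array's 75th percentile was subtracted.

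Probes that both arrays of 1 or both groups showed well above background were kept, and a gene was represented by its brightest kept probe, which gave 18093 features. Groups were compared with limma 3.58.1 (lmFit, eBayes) in R 4.3.3 on 2 residual degrees of freedom, with Benjamini-Hochberg adjusted p-values across the 18093 features and a threshold of 0.05. The script was tested on simulated data. Values on each array are given for members that passed with at least a 2-fold change, by the bound where 1 group was at background. Where no member of a role did so, up to 2 per direction are given. Other members that passed are given in the same form, or by their difference, and from the related lists up to 2 genes per direction by size. Further genes of those lists were named after their values were seen. The alternatives were 6 other sources or scalings of the values, 3 other filters or variance settings, 2 treatments of multiple probes, a block for the replicate number, and each array left out in turn. Matching by accession gave 92 of 93 names a RefSeq symbol. Exon, intron and untranslated positions were not analysed here. Some genes counted in the totals are not reported here by name or drawn in the plots of single transporters.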

Additional observations from a re-analysis of the deposited data

How the results depend on the processing

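The counts of transporters that fell moved with the settings. The count that passed was 8 under median scaling and also 8 with the authors' log2 values, 6 with no background filter, and 8 to 11 when each array was left out in turn, against 13. The count with a fitted fall of at least 2-fold was 1 with normexp background correction, 6 under the percentile of probes detected on all arrays and 1 with only probes well above background on all arrays, which removes Slc26a10, against 2. With no background filter 34816 features were tested; the cause of the other shifts was not tested. The counts of rises stayed within 1.5 times of 22, at 16 to 33. Of the 22 rises and 13 falls, 16 and 5 kept their call with no background filter, and 22 and 8 under median scaling. The 19 named genes counted below were picked for the size of their change, across all roles or within their own role. Their calls may therefore hold better than those of the other transporters. Slc14a1 passed in all 16 alternatives, at 3.11 to 4.11 (log2). Of 302 values of 19 named genes under an alternative, 294 kept their call, 8 no longer passed (Slc4a11, Slc8a2 and Slc8a3) and 0 turned direction.

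The labels number the arrays alike in both groups without saying that a number marks a shared culture or day. The differences between replicates 1 and 2 in the 2 groups correlated at 0.0472 across features. With the replicate block 22 transporters were higher and 12 lower, and the call lost was that of Slc39a13. A fit without 1 array takes that group's spread from the other group. Dim probes limit what can be read for Slc9a5, Slc40a1, Slc24a6, Slc8a2 and Slc26a10.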
